A study of Macaca mulatta with 24 samples.

Results

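Complement is a set of plasma and membrane proteins that tag and lyse cells and microbes, and they are also made locally in the endometrium, the uterine lining in which the embryo implants. In the classical pathway the proteases encoded by C1R and C1S are activated on C1q, and the C1S protease then cleaves C4 and C2. In the alternative pathway factor D (CFD) cleaves factor B (CFB) bound to C3b. Both routes cleave C3, the central component, and the protease factor I (CFI) inactivates its product C3b with cofactors such as the membrane protein CD46. CD59 blocks the last step, in which the pore forms. In human endometrium C3 is known as a gene of the secretory phase.

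Of the 9 complement genes considered (C3, C2, C1R, C1S, CFB, CFD, CFI, CD46 and CD59), C3, CFB and CD46 were found by a probe whose gene name in the scanner files was exactly that symbol, so 3 genes met the rule. A further 4 were named otherwise and are described beside them: CFD and CFI through the gene ID in the probe's name, and C1R and C1S through the full gene name in the probe's description. C2 and CD59 had no probe named in any of these ways and are not analysed here. The 7 genes had 1 probe each, among 11234 genes with a named probe on the array.

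Total RNA from rhesus monkey endometrium was hybridised to 24 Agilent 1-colour arrays, which measure fluorescence at 60-base probes. There were 6 groups of 4 arrays: conception cycles, in which mating led to a proven pregnancy, at days 2, 4 and 6 after ovulation, and ovulatory cycles without mating at days 2, 4 and 6. For 8 non-mated samples the title says day 2 while the other labels say day 4 or 6; the other labels were used. The source labels count the conception days as post fertilization and the non-mated days as after ovulation. Both are treated here as days after ovulation. The labels give neither ages nor the animals behind the arrays, so p-values here describe the spread of the arrays, part of which may be technical.

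Levels are the log2 signal of a probe minus the 75th percentile of its array, so a level of 0 equals that percentile. Levels of different genes come from different probes and are not compared with each other. Because the tissue was measured in bulk, fewer cells of a type and less RNA per cell cannot be told apart. The scanner's own test put 53.3% to 71.5% of probes well above background on 21 arrays, but 3 non-mated arrays were weak: day 2 replicate 3 at 4.33%, day 4 replicate 1 at 37.9% and day 4 replicate 2 at 21.8%. Results are therefore given with and without these 3 arrays, which leaves 3 arrays at non-mated day 2 and 2 at non-mated day 4. On the weak arrays several dim probes held 1 identical value, which is a floor and has no order: -0.26 on non-mated day 2 replicate 3 (C3, CFB, CFD, CD46 and 6 further tested complement genes), -3.66 on non-mated day 4 replicate 1 (CFB) and -1.57 on non-mated day 4 replicate 2 (C3). None of these spots was well above background. The tissue label was checked against its markers. All 4 uterine markers with a probe (of 6 listed) were well above background on at least 3 arrays of every group except non-mated day 4, where 3 were. Epithelial markers were so for 5 of 5 and stromal markers for 6 to 8 of 8 in each group. Of the 2 liver markers with a probe, at most 1 reached that standard in any group.

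The 60-base probes of the 2 genes that rose and fell together most closely across arrays, C3 and CFB, are shown because that result rests on them. The files place them on the rheMac2 build, C3 at chr19:6569516-6569575 on the minus strand and CFB at chr4:31607897-31607956 on the plus strand. In the C3 probe the capitals mark the TGA at position 56, the first stop triplet in that reading frame, so the probe lies at the end of the coding sequence.
C3: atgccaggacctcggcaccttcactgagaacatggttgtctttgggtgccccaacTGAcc
CFB: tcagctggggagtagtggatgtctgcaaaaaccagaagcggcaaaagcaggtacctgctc

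The other probes lay at chr11:7288965-7289024 (minus strand) for C1R, chr11:7276343-7276402 (plus strand) for C1S and chr19:600009-600068 (plus strand) for CFD. For CD46 the files give only 10 mapped bases, chr1:162580982-162580991, and for CFI no position. The genes differed in how often they were detected. C1R was well above background on 24 of 24 arrays, C1S on 23, CD46 on 22, CFI on 21, CFD on 20, C3 on 18 and CFB on 12. CFB entered the tests only through conception day 2, where all 4 arrays passed, against 1 or 2 arrays in each other group, so its low values lie near the detection limit.

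The first comparison asked whether complement transcripts differed between conception and non-mated cycles on the same day. No complement gene passed the threshold on any day (limma, Benjamini-Hochberg adjusted p below 0.05). Among all 12204 features tested, 0% passed at day 2, 0% at day 4 and 0.00819% (1 feature) at day 6, so the 0 of 7 is read against a background that is itself close to 0. At an unadjusted p below 0.05 the counts were also 0 of 7 on each day, against 2.54%, 5.88% and 2.47% of all features. At day 2 the 7 differences were positive for 1 gene and had a median of -0.25, beside -0.15 for all features. At day 4 they were positive for 5 genes with a median of 0.59 (-0.01 for all features), and at day 6 for 5 genes with a median of 0.29 (-0.00097 for all features). Without the weak arrays 0 of 7 passed on each day (0.0246% of all features, 3 of them, did at day 6), and the medians were -0.07, 0.48 and 0.29. In each of these 3 comparisons the arrays of the 2 groups overlapped for all 7 genes; 1.42%, 2.36% and 4.32% of all features did not overlap at days 2, 4 and 6.

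**Figure D1:**
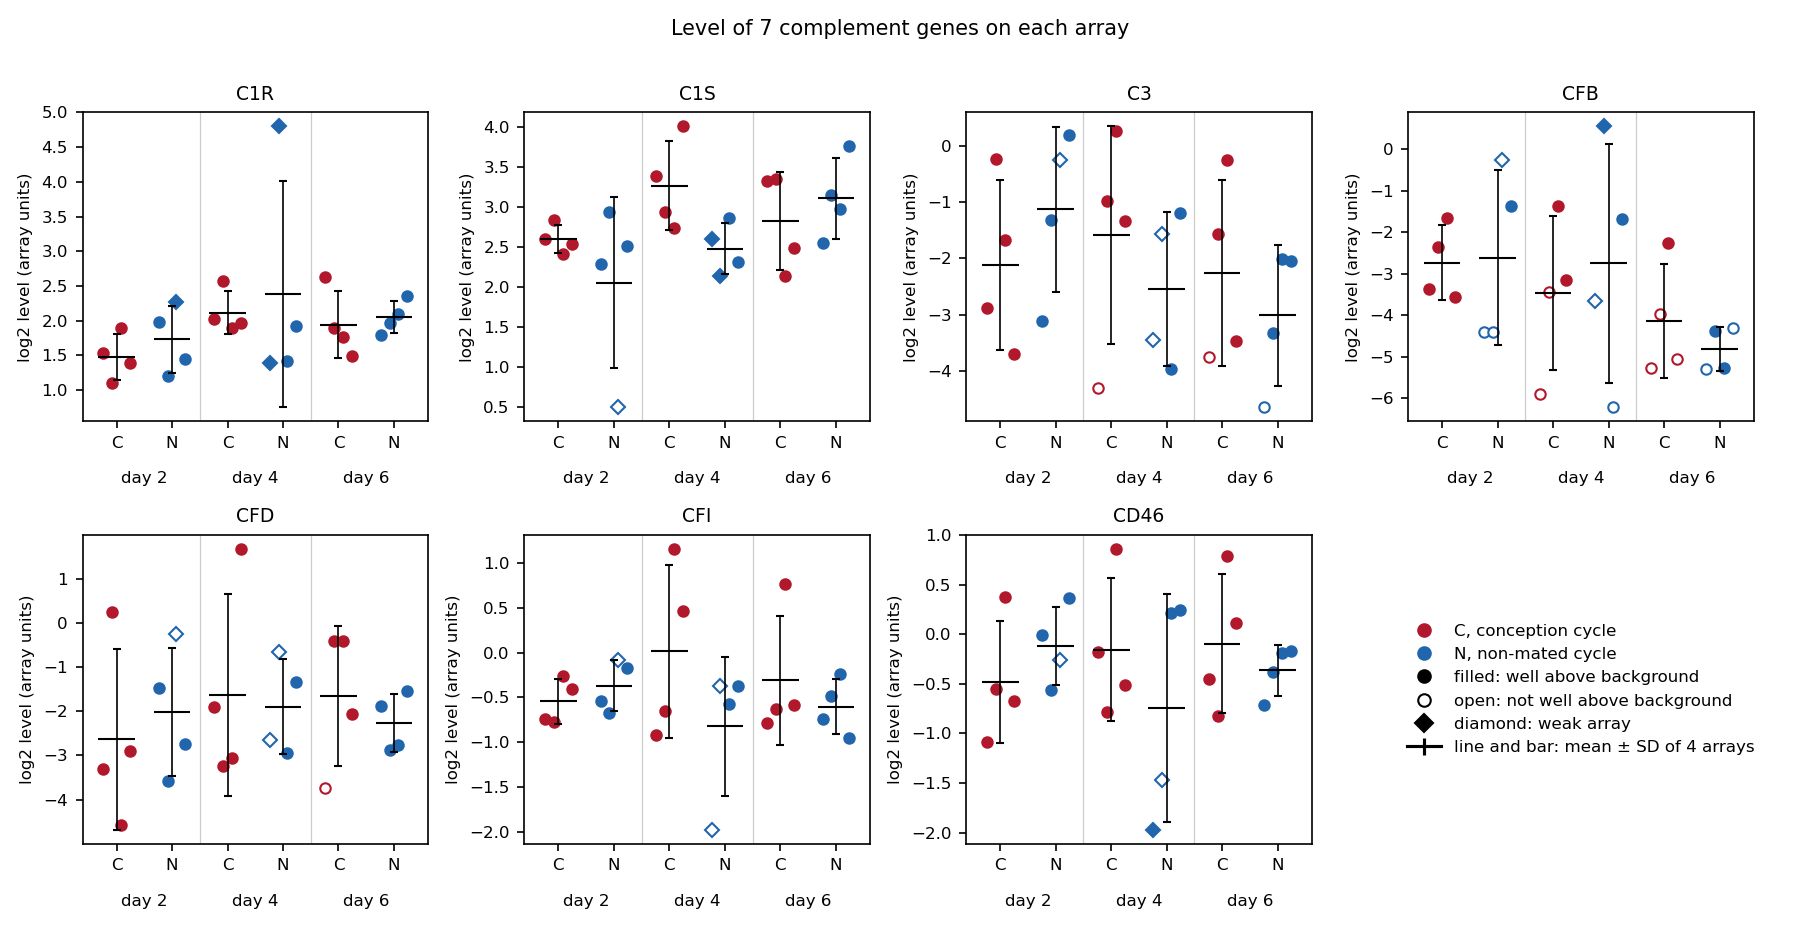
Log2 level (vertical axis, relative to the 75th percentile of the array) of the 7 complement genes on each of the 24 arrays, by day and cycle type (C, conception; N, non-mated). Points are arrays, lines and bars are mean ± SD of 4 arrays, open symbols are arrays on which the probe was not well above background, and diamonds are the 3 weak arrays; the C and N points overlap for every gene on every day.

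C1R and C1S, the protease pair of the C1 complex, were the most steadily detected. C1R lay at 1.53, 1.10, 1.89 and 1.39 in conception day 2 endometrium, against 1.99, 1.21, 2.27 and 1.45 at non-mated day 2. At day 4 it lay at 2.02, 2.57, 1.89 and 1.97 in conception cycles, against 1.39, 4.80, 1.42 and 1.92 in non-mated cycles, where the 4.80 belongs to weak replicate 2. At day 6 the conception arrays were at 2.62, 1.90, 1.77 and 1.49 and the non-mated arrays at 1.79, 1.96, 2.10 and 2.35. The day 6 ranges overlap almost completely. The conception minus non-mated difference of C1R was -0.25 ± 0.52 at day 2, -0.27 ± 0.52 at day 4 and -0.11 ± 0.52 at day 6 (SE, n = 4 against 4). Without the weak arrays the day 4 difference took the opposite sign, 0.45 ± 0.33, with a 95% confidence interval of -0.24 to 1.14 (limma adjusted p = 0.882).

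C1S lay at 2.60, 2.83, 2.41 and 2.54 in conception day 2 endometrium, against 2.28, 2.93, 0.49 and 2.51 at non-mated day 2, the 0.49 on weak replicate 3. At day 4 it lay at 3.38, 2.93, 2.74 and 4.00 in conception cycles, against 2.60, 2.14, 2.86 and 2.30 in non-mated cycles. The conception arrays were above every non-mated array except replicate 3, so the groups overlapped by 1 array. The difference at day 4 was 0.79 ± 0.44 (limma adjusted p = 0.702), the same value within scan day 1 and within scan day 2 (0.79 each), and 0.68 ± 0.40 without the weak arrays. Neither within-day value is free of a limit. Both non-mated day 4 arrays of scan day 2 were weak, and within scan day 1 the cycle types lay on separate slides. At day 6 C1S averaged 2.82 ± 0.61 in conception cycles and 3.10 ± 0.50 in non-mated cycles (SD, n = 4 each), a difference of -0.28 ± 0.44.

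C3 varied widely between arrays of the same group. In conception cycles it lay at -2.88, -0.23, -1.68 and -3.70 at day 2, at -4.30, -0.98, 0.25 and -1.34 at day 4, and at -3.75, -1.56, -0.26 and -3.47 at day 6. In non-mated cycles it lay at -3.10, -1.32, -0.26 and 0.18 at day 2, at -3.45, -1.57, -3.96 and -1.20 at day 4, and at -4.64, -3.32, -2.02 and -2.05 at day 6. Within every group the lowest and highest arrays lay farther apart than any pair of group means, and all pairs of groups overlapped. The conception minus non-mated differences were -0.99 ± 1.01 at day 2 (95% confidence interval -3.09 to 1.10), 0.95 ± 1.01 at day 4 (-1.14 to 3.04) and 0.75 ± 1.01 at day 6 (-1.35 to 2.84). With intervals this wide, a shift of several-fold in either direction was not detectable with 4 arrays a group. At day 4 the difference was 2.03 within scan day 1, which held no weak array at that day, and -0.13 within scan day 2, where both non-mated arrays were weak. Within scan day 1 the 2 cycle types lay on separate slides, so slide and cycle type cannot be told apart there.

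CFB, the alternative pathway protease precursor, lay at -3.36, -2.36, -1.64 and -3.57 in conception day 2 endometrium, against -4.40, -4.40, -0.26 and -1.37 at non-mated day 2. At day 4 the conception arrays were at -5.90, -3.45, -1.37 and -3.14 and the non-mated arrays at -3.66, 0.56, -6.22 and -1.67. Its 2 highest values, -0.26 and 0.56, were on weak arrays, and the -0.26 and the -3.66 are floors. At day 6 CFB averaged -4.14 ± 1.37 in conception cycles and -4.81 ± 0.54 in non-mated cycles (SD, n = 4 each). The differences were -0.12 ± 1.17 at day 2, -0.71 ± 1.17 at day 4 and 0.68 ± 1.17 at day 6, and without the weak arrays 0.66 ± 1.08, 0.48 ± 1.22 and 0.68 ± 1.00.

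CFD, the serine protease that activates factor B, spread from -4.58 to 1.67 over the 24 arrays. Its group means ranged from -2.63 ± 2.05 at conception day 2 to -1.63 ± 2.28 at conception day 4 (SD, n = 4 each). Its conception minus non-mated differences were -0.62 ± 1.05, 0.26 ± 1.05 and 0.61 ± 1.05 at days 2, 4 and 6. Without the weak arrays they were -0.03 ± 1.14, 0.50 ± 1.30 and 0.61 ± 1.06. The highest non-mated day 2 value, -0.26 on weak replicate 3, is a floor. None exceeded the spread between arrays.

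Of the 7 genes, the regulator CFI had the smallest unadjusted p at day 4. It lay at -0.92, -0.65, 1.15 and 0.46 in conception day 4 endometrium, against -1.98, -0.37, -0.57 and -0.37 at non-mated day 4. The first 2 conception arrays lay below the 3 higher non-mated arrays and the other 2 above all 4. The difference was 0.84 ± 0.45 (95% confidence interval -0.09 to 1.77, limma adjusted p = 0.702), and 0.48 ± 0.48 without the weak arrays, one of which held the -1.98. The differences at day 2 and day 6 were -0.18 ± 0.45 and 0.29 ± 0.45. CD46, which protects host cells from C3b and C4b, averaged -0.48 ± 0.62 in conception and -0.12 ± 0.39 in non-mated cycles at day 2 (SD, n = 4 each). At day 4 its means were -0.15 ± 0.72 in conception and -0.74 ± 1.15 in non-mated cycles. At day 6 they were -0.09 ± 0.70 in conception and -0.36 ± 0.25 in non-mated cycles. Its day 4 difference was 0.59 ± 0.49 with all arrays and -0.39 ± 0.48 without the weak arrays, so its sign rests on 2 weak arrays, at -1.97 and -1.47.

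On each day the highest CD46 level in conception cycles was on replicate 3, at 0.38, 0.86 and 0.79 at days 2, 4 and 6. CFI was also highest on replicate 3 on these days, at -0.27, 1.15 and 0.76, and so was CFB, at -1.64, -1.37 and -2.26. These 3 arrays shared slide 7. On scan day 1, slides 7 and 8 held conception arrays only and slides 5 and 6 non-mated arrays only. On that scan day the slide and the cycle type cannot be told apart. With slide as a block the day 4 CFI difference was 0.61 ± 0.38. Only slides 2 and 3 held both day 4 groups, and their non-mated arrays, replicates 1 and 2, were weak.

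**Figure D2:**
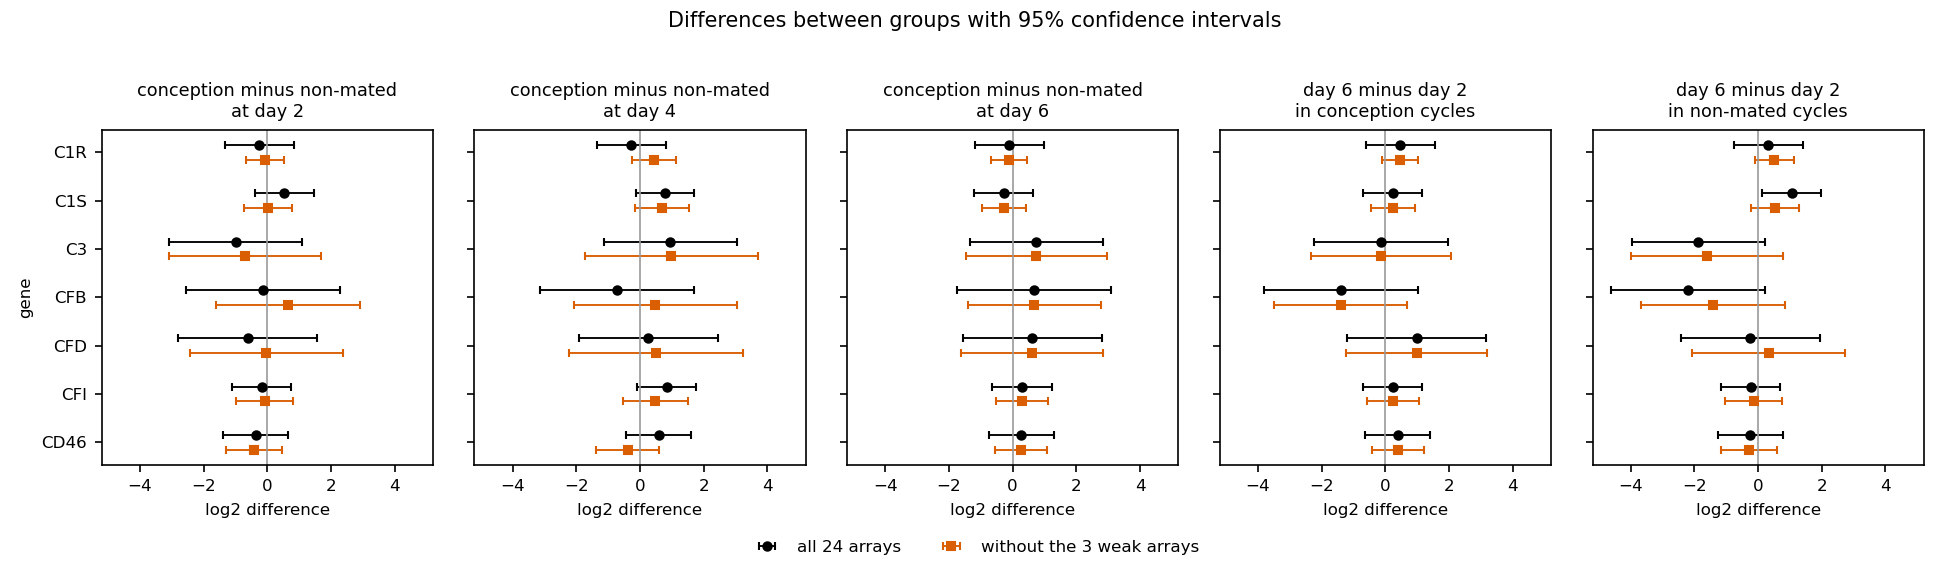
Log2 differences (horizontal axes) of the 7 complement genes in 5 comparisons, with 95% confidence intervals from limma, for all 24 arrays (black circles) and without the 3 weak arrays (orange squares). Every interval includes 0 except that of C1S for day 6 minus day 2 in non-mated cycles with all arrays, 0.13 to 1.97, which includes 0 without the weak arrays.

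The second comparison asked how complement levels differed between days within a cycle type. For day 6 against day 2 in conception cycles 0 of 7 genes passed, as did 0.0164% of all features (2 of 12204). In non-mated cycles 0 of 7 passed and 0% of all features did. At an unadjusted p below 0.05 there were 0 of 7 in conception cycles (4.18% of all features) and 1 of 7 in non-mated cycles (3.29% of all features). That gene was C1S, with a mean of 3.10 ± 0.50 at day 6 and 2.05 ± 1.07 at day 2 (SD, n = 4 each), a difference of 1.05 ± 0.44 (limma adjusted p = 0.758). Without the weak array the day 2 mean was 2.57 ± 0.33 and the difference 0.53 ± 0.36 (adjusted p = 1). In conception cycles the same C1S difference was 0.23 ± 0.44.

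For C3 and CFB the day 6 minus day 2 differences in non-mated cycles were -1.88 ± 1.01 for C3 (95% confidence interval -3.97 to 0.21) and -2.21 ± 1.17 for CFB (-4.62 to 0.21), each with a limma adjusted p of 0.758. Without the weak arrays they were -1.59 ± 1.14 and -1.42 ± 1.08. The CFB value rests largely on levels near background, since its probe was well above background on 2 of 4 arrays at day 6 and 1 of 4 at day 2. CFB at non-mated day 6 lay at -5.29, -4.38, -5.27 and -4.31, against -4.40, -4.40, -0.26 and -1.37 at non-mated day 2. The 2 higher day 6 arrays lay within the day 2 range and the 2 lower ones below it. No complement gene of the 7 had separate ranges here, as 2.98% of all features did. In conception cycles the day 6 minus day 2 difference was -0.14 ± 1.01 for C3 and -1.41 ± 1.17 for CFB. C1R had a day 6 minus day 2 difference of 0.47 ± 0.52 in conception and 0.32 ± 0.52 in non-mated cycles, and CFD 0.98 ± 1.05 and -0.25 ± 1.05. For CFI these were 0.24 ± 0.45 and -0.24 ± 0.45, and for CD46 0.39 ± 0.49 and -0.25 ± 0.49.

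Whether the effect of cycle type differed between day 6 and day 2 was tested directly. Of the 7 genes 0 passed, as did 0% of all features, and 0 of 7 had an unadjusted p below 0.05 (2.11% of all features). For day 4 against day 2 with all arrays, also 0 of 7 passed in each cycle type (0% of all features in both). An unadjusted p below 0.05 was found for 0 of 7, against 2.62% of all features in conception and 3.21% in non-mated cycles. Without the weak arrays, which belong to neither conception group, 0 of 7 passed in either cycle type. An unadjusted p below 0.05 was then found for 1 of 7 in conception cycles (1006 of 12204 features) and 0 of 7 in non-mated cycles (319 features). That gene was C1R, with a difference of 0.64 ± 0.27 (limma adjusted p = 0.565), against 0.64 ± 0.52 with all arrays. C1R at conception day 4, 1.89 to 2.57, did not overlap with conception day 2, 1.10 to 1.89, by a margin smaller than the rounding; 4.15% of all features did not overlap there. These comparisons share groups with each other, so their values are not independent.

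Ordered by mean level over the 6 groups, C3 was highest at non-mated day 2 (-1.13 ± 1.46) and lowest at non-mated day 6 (-3.01 ± 1.25). CFB had the same highest and lowest groups, at -2.61 ± 2.12 and -4.81 ± 0.54. C1S was highest at conception day 4 (3.26 ± 0.56) and lowest at non-mated day 2 (2.05 ± 1.07), and CFI was highest at conception day 4 (0.01 ± 0.97) and lowest at non-mated day 4 (-0.82 ± 0.78). C1R ran from 2.38 ± 1.63 at non-mated day 4 to 1.48 ± 0.33 at conception day 2. CD46 ran from -0.09 ± 0.70 at conception day 6 to -0.74 ± 1.15 at non-mated day 4 (SD, n = 4 for each group named). With all arrays, for none of the 35 pairs of neighbours in these 7 orders did the means differ by more than the larger SD of the pair. Several of these orders rest on the weak arrays. Without them C1R was highest at conception day 4 (2.11 ± 0.31) and lay at 1.67 ± 0.35 at non-mated day 4. CFB was then highest at conception day 2 (-2.73 ± 0.90) and lay at -3.39 ± 1.75 at non-mated day 2. It entered the tests only through conception day 2, so this rank is not independent of the filter. CFI was then lowest at non-mated day 6 (-0.61 ± 0.31) and lay at -0.47 ± 0.14 at non-mated day 4. CD46 was then highest at non-mated day 4 (0.24 ± 0.02), the group that was lowest with all arrays, and lowest at conception day 2 (-0.48 ± 0.62). The highest and lowest groups of C3, C1S and CFD were the same as with all arrays. In these means n is 3 at non-mated day 2, 2 at non-mated day 4 and 4 elsewhere.

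**Figure D3:**
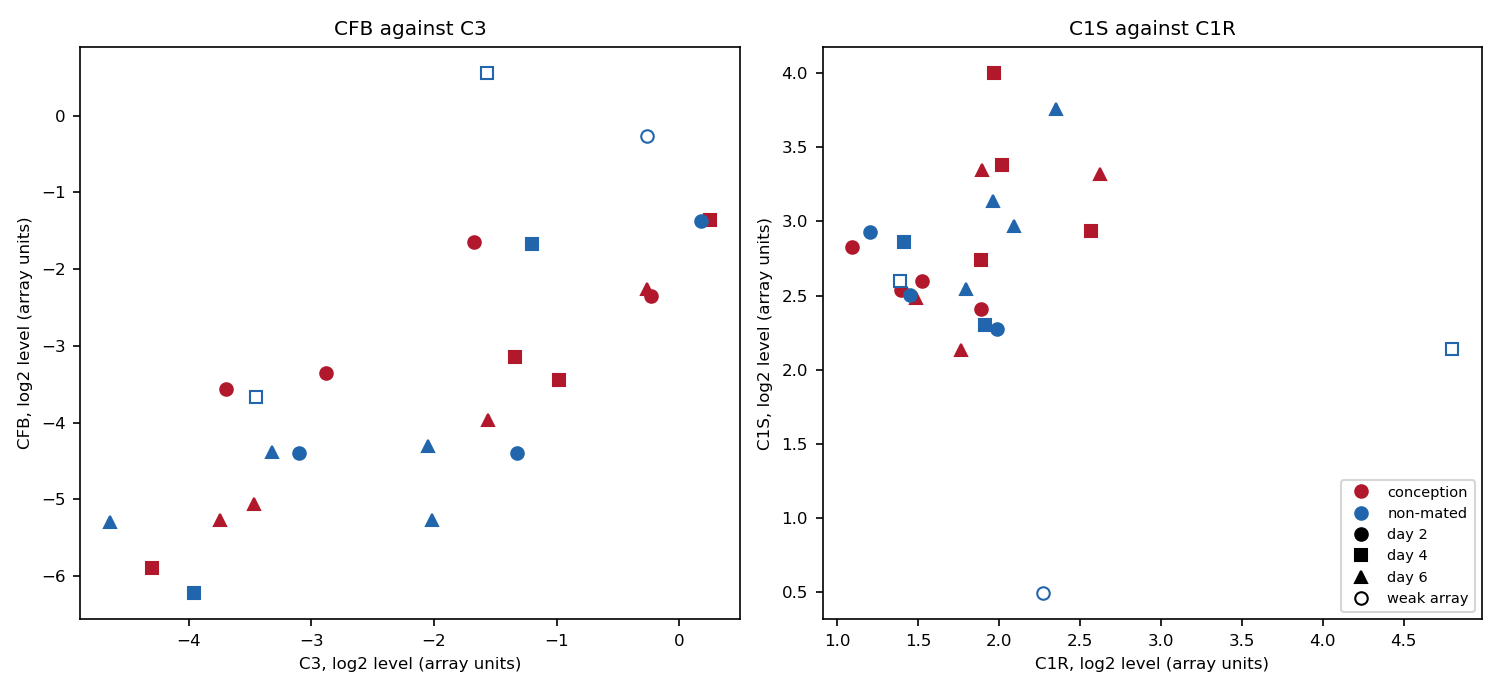
Log2 levels of CFB against C3 (left) and of C1S against C1R (right) on each of the 24 arrays, coloured by cycle type with a symbol for each day; open symbols are the 3 weak arrays. CFB and C3 lie along a line over the 21 other arrays (Pearson r = 0.814), and C1R and C1S less so (r = 0.399).

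C3 and CFB, the substrate and the catalytic subunit of the alternative pathway C3 convertase, varied together from array to array, although neither passed a test between groups. Over the 21 arrays that were not weak their levels correlated at r = 0.814, and at r = 0.844 after each group's mean was subtracted. Conception day 4 replicate 3 was high in both (C3 0.25, CFB -1.37) and conception day 4 replicate 1 low in both (-4.30 and -5.90). The correlation was 0.832 over the 12 conception arrays, 0.796 over the 9 non-mated arrays, 0.821 over the 11 arrays of scan day 1 and 0.840 over the 10 arrays of scan day 2. On the 11 arrays where both probes were well above background it was 0.709. Without the 2 arrays farthest from the C3 median it was 0.778. Among the 7871 tested features with a gene symbol, CFB was the one most like C3, and C3 the one most like CFB. The next most like C3 were CPVL (0.767) and HTATIP2 (0.762), and the next most like CFB were DNAH7 (0.781) and CFAP61 (0.770). All such correlations share the arrays' hybridisation and scaling and are descriptions only.

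The smooth muscle markers, of which 6 of 6 had a probe, moved with these genes: their mean level correlated with C3 at 0.609, with CFD at 0.542 and with CFB at 0.501 over the same 21 arrays. The summed level of these markers ranged from 8.96 to 339.7 at conception day 2, 9.81 to 51.7 at conception day 4 and 16.8 to 44.5 at conception day 6. In non-mated cycles it ranged from 11.4 to 41.0 at day 2, 8.82 to 49.2 at day 4 and 14.8 to 29.1 at day 6, in units of the array's 75th percentile. The part of smooth muscle in the C3 and CFB levels was not tested. Epithelial markers correlated with C3 at 0.080 and with CFB at 0.201, and macrophage markers at 0.092 and -0.022.

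The classical pathway pair behaved differently from C3 and CFB. C1R and C1S correlated at 0.399 over the 21 arrays and at 0.0899 after the group means were subtracted. C1S was most like DNASE2B (0.773), TMEM39B (0.749) and CTSK (0.746), and correlated with the macrophage markers at 0.530, the 2 liver markers with a probe at 0.517, the stromal markers at 0.468 and the epithelial markers at -0.499. C1R was most like TTR (0.704), PSTPIP2 (0.682) and CTSL (0.663), and correlated at 0.695 with the liver markers, 1 of which is TTR. In every group 1 of the 2 liver markers was well above background on 0 arrays. The other was so on at least 3 arrays only at conception day 4 and non-mated day 6. The liver correlations rest largely on levels near background. C1R correlated with markers of the endothelium at 0.452, uterine natural killer cells at 0.428, T and B cells at 0.423 and macrophages at 0.385. Of the marker lists, only the epithelial and smooth muscle ones correlated negatively with C1R. The part of any cell type in the C1R and C1S levels was not tested. The regulators CFI and CD46 correlated at 0.628, and at 0.683 after the group means were subtracted. CFI was most like OTUB2 (0.908), TRNT1 (0.904) and IQUB (0.848), CD46 was most like LARP1B (0.909), PDLIM5 (0.894) and PIKFYVE (0.866) and correlated with the stromal markers at -0.628, and CFD was most like COQ9 (0.781), BICD2 (0.756) and TRAF3IP2 (0.753).

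The wider complement system was described through 38 further genes, of which 26 had a named probe and 16 were tested; CLU had no named probe. With all arrays 0 of the 16 passed in any of the 8 comparisons, in which between 0% and 0.0164% of all features passed, so a count of 0 says little about these genes. The count at an unadjusted p below 0.05 was 3 of 16 for conception against non-mated at day 4 (5.88% of all features), 2 of 16 for day 4 against day 2 in conception cycles (2.62%), 1 of 16 for day 6 against day 2 in conception cycles (4.18%) and 0 in the other 5 comparisons. Without the weak arrays these counts were 3, 4 and 4 of 16, where 677, 1006 and 1863 of the 12204 features had such a p. At day 6 the count for conception against non-mated was then 3 of 16, and 1141 features had such a p. It was 1 of 16 for conception against non-mated at day 2 (C1QA, 144 features). The count was also 1 for day 6 against day 2 in non-mated cycles (ITGB2, 0.74 ± 0.30, 227 features). For the effect of cycle type differing between day 6 and day 2 it was 1 (C8B, 520 features). Day 4 against day 2 in non-mated cycles stayed at 0 (319 features).

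With all arrays the 3 genes at day 4 were the following. ITGB2, the beta chain of complement receptors 3 and 4 on leukocytes, lay at -0.37, -0.05, -0.19 and -0.03 in conception day 4 endometrium, against -1.28, -1.57, -1.07 and -1.20 at non-mated day 4. Its groups did not overlap, as was so for 2.36% of all features, and the difference was 1.12 ± 0.36 (limma adjusted p = 0.702). The -1.57 on the weak replicate 2 is a floor. C1QA, a chain of C1q, differed by 1.10 ± 0.42 and C4B, the substrate of C1s, by 1.63 ± 0.73, each with a limma adjusted p of 0.702. Without the weak arrays the differences were 0.97 ± 0.34 for ITGB2, 0.42 ± 0.40 for C1QA and 1.66 ± 0.90 for C4B. The 3 genes with an unadjusted p below 0.05 were then ITGB2, C1QC (1.94 ± 0.72) and VSIG4 (1.46 ± 0.62). Each had a limma adjusted p of 0.86, with 2 arrays left at non-mated day 4. ITGB2 (0.78 ± 0.36) and C4B (1.61 ± 0.73) were also the genes with the smallest p for day 4 against day 2 in conception cycles, each with a limma adjusted p of 1. The macrophage markers were higher in conception cycles at day 4 for 5 of 7 with a median difference of 0.70 and 0 passed; their summed level was 18.3 to 56.1 in conception and 14.6 to 37.6 in non-mated cycles. Their part in the ITGB2 and C1QA values was not tested.

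C5AR1, the receptor for the C5a fragment, lay at 3.12, 3.11, 4.16 and 2.76 in conception day 6 endometrium, against 1.50, 1.52, 1.12 and 1.25 at conception day 2. All 4 day 6 arrays were above all day 2 arrays, as was so in either direction for 7.68% of all features. The difference of 1.94 ± 0.93 did not pass with all 24 arrays (limma adjusted p = 0.997). Leaving out the weak arrays, which belong to neither group, it was 1.94 ± 0.43 and passed (adjusted p = 0.0284), as did 1.69% of all features. The weak non-mated arrays held C5AR1 at 5.73, 4.93 and 6.41, above every other array, and the SE shared by the groups was 0.93 with them and 0.43 without them. The difference was 3.04 within slide 7 and 1.51 within slide 8, which held 1 array of each day. In non-mated cycles without the weak arrays it was 0.75 ± 0.46, and the test of the difference between cycle types gave 1.19 ± 0.63 (adjusted p = 0.932), so the day 6 rise was not shown to belong to conception cycles. The macrophage markers, of which 5 of 7 were higher at conception day 6 than at day 2 with a median difference of 0.41 and 0 passed, had a summed level of 28.2 to 105.3 at day 6 and 21.3 to 41.8 at day 2. Uterine natural killer cell markers were higher at day 6 for 6 of 6 tested with a median difference of 1.15 and 0 passed, with a summed level of 20.3 to 24.3 at day 6 and 7.56 to 19.3 at day 2. The part of either cell type in the C5AR1 values was not tested.

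The other gene to pass without the weak arrays was C8B (adjusted p = 0.0362), a component of the lytic pore, but all 12 conception arrays failed the background test at its probe, so no fold is given. The genes below did not pass with all arrays or without the weak ones. SERPING1, which encodes the C1 inhibitor, averaged 3.37 ± 0.03 at non-mated day 6 and 2.32 ± 1.20 at non-mated day 2 (SD, n = 4 each), a difference of 1.05 ± 0.51 (limma adjusted p = 0.758) that was 0.45 without the weak arrays. CD55, a membrane protein that speeds the decay of C3 convertases, averaged 1.44 ± 1.82 at conception day 6 and 2.87 ± 0.37 at non-mated day 6, a difference of -1.43 ± 0.79 (limma adjusted p = 1). C1QA at day 2 differed between conception and non-mated cycles by 0.87 ± 0.42 (limma adjusted p = 0.789).

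C4BPA, a chain of the C4b-binding protein, was well above background on 9 of 24 arrays, 3 of them at conception day 4, where it averaged -2.57 ± 2.29. C7, a component of the lytic pore, averaged -3.32 ± 1.48 at conception day 6 and -1.89 ± 1.60 at conception day 2. C5, VSIG4 and C1QC were also among the 3 smallest p-values of a comparison and did not pass in any. For C1QC only the probe named through its description was tested, since the other was well above background on at most 2 arrays of a group.

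**Figure D4:**
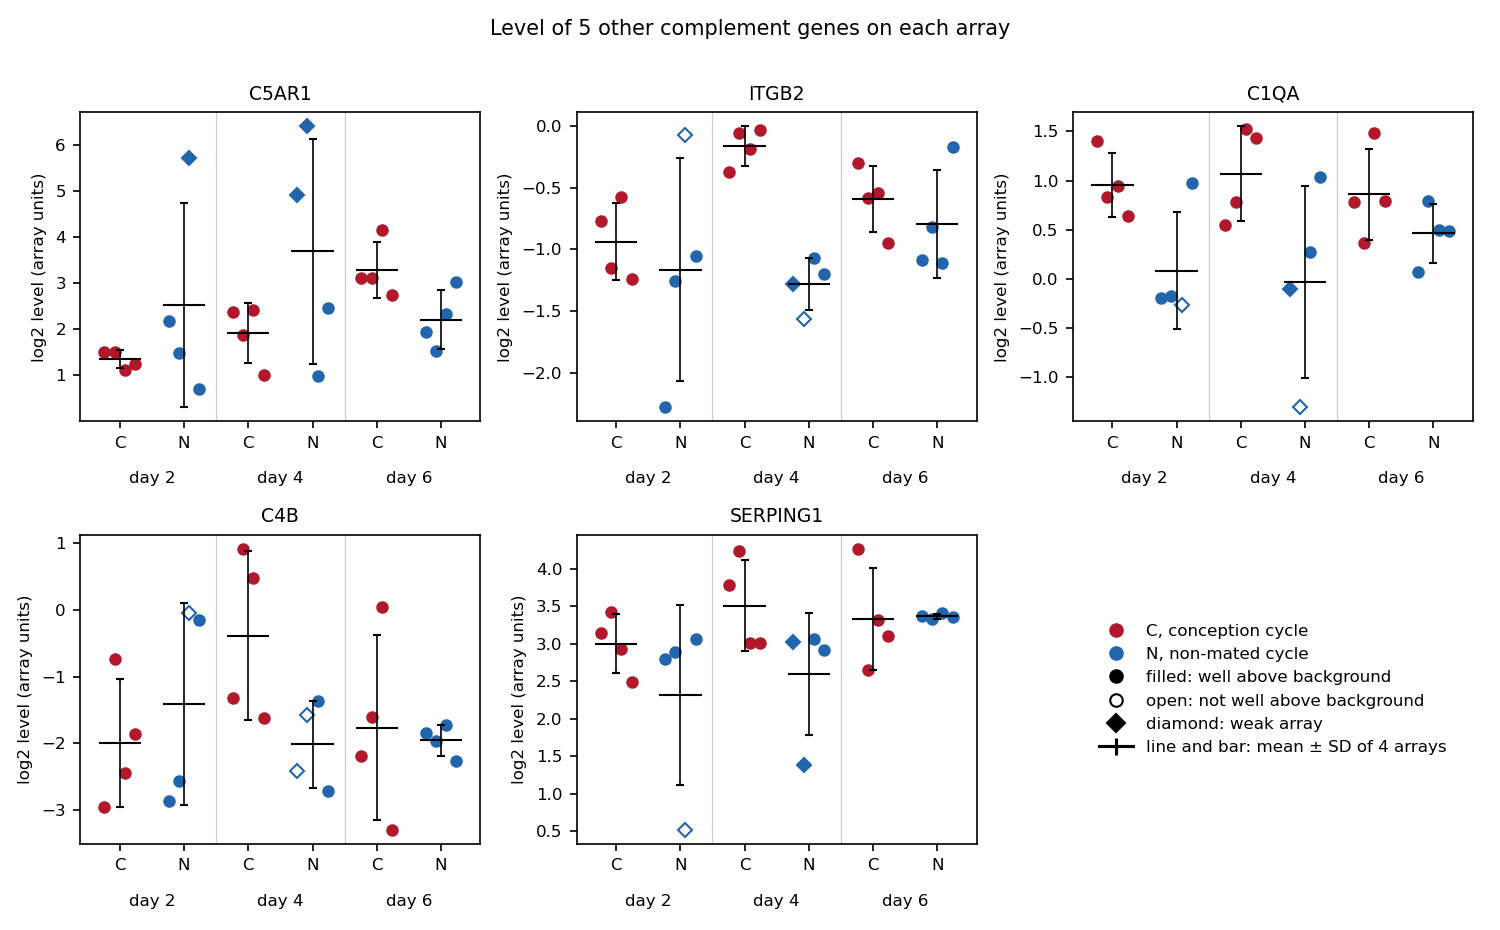
Log2 level (vertical axis, relative to the 75th percentile of the array) of C5AR1, ITGB2, C1QA, C4B and SERPING1 on each of the 24 arrays by day and cycle type, with mean ± SD of 4 arrays and symbols as in the plot of the 7 genes. C5AR1 at conception day 6 (2.76 to 4.16) lies above conception day 2 (1.12 to 1.52), and its highest values, 4.93 to 6.41, are on the weak arrays.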

How the data were processed

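The deposited scanner files hold a spot intensity on a linear scale, background-corrected by Agilent Feature Extraction (version 9.5.3.1 per the file headers, 10.7.3.1 per the submitters' processing notes), with probe positions on rheMac2. A table of log2 values deposited by the authors served only as an alternative: its columns followed the scanner values at r of 0.997 to 1.00 over the probes, the column medians were -0.41 to 0.10 on 21 arrays and 0.70 to 2.85 on the 3 weak arrays, and its centring is not given in the sources used here. It held 0 further columns of per-sample values.

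Control spots were left out. Spots flagged as non-uniform or as outliers were left out, except where all spots of a probe were flagged. The flag for a non-uniform background was not used. The spots of a probe were averaged. Levels are log2 of the processed signal, less the array's own 75th percentile. A probe was kept where a group had 3 or more of its 4 arrays well above background, and the brightest was taken for each gene, which gave 12204 features. Group means were fitted in R 4.3.3 with limma 3.58.1 (18 residual degrees of freedom), with Benjamini-Hochberg adjustment over all features and a threshold of 0.05; tests were two-sided. Tables were handled with Python 3.11.15, pandas 2.3.3, numpy 2.4.6 and matplotlib 3.10.9. The number of arrays limits the precision.

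Symbols came from the gene name, the gene ID or transcript accession in the RefSeq gene table (used for names only), or a full name in the description matched by a hand-written table. A weak array had under 40% of probes well above background. Named genes are the 9 considered, the further complement genes past the threshold or with the 3 smallest p-values of a comparison, 7 of them fixed by name, and the 3 features most like each member. The members and lists were chosen with earlier results of these data known. Slides, scan days and scan ranges, per the file headers, were tried as batches, and the replicate numbers as a block. Same-numbered arrays of different groups deviated from their group means together at r from -0.68 to 0.64 (median 0.018 over 60 pairs), so the numbers were not taken as pairing. One further complement gene of the list is not reported here.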

Additional observations from a re-analysis of the deposited data

Results flagged for a closer look

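In 9 of 120 groups of 4 arrays, 1 array lay far from the other 3 by Dixon's criterion, which chance alone meets in about 1 in 20 groups, and 6 of the 9 were on weak arrays. C1R was 4.80 on non-mated day 4 replicate 2, a weak array, and 1.39 to 1.92 on the others. CFI was 0.76 on conception day 6 replicate 3, the array with 616 flagged spots, and -0.79 to -0.58 on the others. CFI was also -1.98 on non-mated day 4 replicate 1, a weak array, and -0.57 to -0.37 on the others. C1QA was 0.97 on non-mated day 2 replicate 4 and -0.26 to -0.17 on the others, where the -0.26 is the floor of a weak array. C5 was -3.48 on conception day 4 replicate 3 and -4.49 to -4.40 on the others. On the weak array of non-mated day 2, C5 was 0.11 (others -4.15 to -3.71), SERPING1 0.52 (others 2.80 to 3.06) and VSIG4 -0.26 (others -3.01 to -2.67). The VSIG4 value is that floor as well. SERPING1 was 1.38 on the weak replicate 2 of non-mated day 4 and 2.92 to 3.07 on the others.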

How the results depend on the processing

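None of the 595 values of the 7 genes under 17 alternatives passed the limma threshold (smallest adjusted p 0.233), and 64 had the opposite sign. The cause of these turns was not tested. The values with the opposite sign follow by setting, with a day alone standing for conception minus non-mated on that day. With the array median subtracted, the difference was 0.40 for C1R, 0.29 for CD46, 0.53 for CFB, 0.032 for CFD and 0.47 for CFI at day 2, 0.13 for C1R at day 4, and for day 6 minus day 2 in non-mated cycles 0.45 for CD46, 0.44 for CFD and 0.46 for CFI. With quantile normalization it was 0.21 for C3, 0.80 for CD46, 1.01 for CFB and 0.59 for CFD at day 2, and 0.94 for CD46 and 0.93 for CFD for day 6 minus day 2 in non-mated cycles. Normexp background correction gave 0.40 for CFB and 0.0080 for CFD at day 2. These scalings also moved the median of all features at day 2, which was 0.50 with the array median, 0.49 with quantile normalization and 0.16 with normexp, against -0.15.

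With array weights the day 2 differences were 0.036 for C1R, -0.12 for C1S, 1.10 for CFB, 0.64 for CFD and 0.027 for CFI, those at day 4 were 0.48 for C1R, -0.30 for CD46 and -0.32 for CFD, and day 6 minus day 2 was 0.21 for C3 in conception cycles and 0.54 for CFD and 0.052 for CFI in non-mated cycles. With scan range as a covariate C1R was 0.0031 at day 2 and 0.019 at day 6, CFB 0.46 at day 2, and CFD -0.0091 at day 4 and 0.023 for day 6 minus day 2 in non-mated cycles. With slide as a fixed block C1R was 0.22 at day 2 and 0.025 at day 6, and C3 0.70 for day 6 minus day 2 in conception cycles.

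Without the weak arrays C1R was 0.45 and CD46 -0.39 at day 4, CFB 0.66 at day 2 and 0.48 at day 4, and CFD 0.34 for day 6 minus day 2 in non-mated cycles. In 3 alternatives chosen after seeing the data, another term was added to that fit. With scan day these values were 0.36, -0.067, 0.46, 1.09 and 0.36. With a replicate block they were 0.40, -0.023, 0.46, 1.09 and 0.56, and CFD at day 2 was 0.20. With slide C1R was 0.34, 0.58 and 0.15 at days 2, 4 and 6, C1S 0.31 at day 6, CD46 -0.54 at day 4, CFB 0.90 and 2.18 at days 2 and 4, CFD -0.34 at day 4 and CFI -0.0098 at day 6. For day 6 minus day 2 that fit gave 0.76 for C3 in conception cycles, and -0.19 for C1S and 0.83 for CFD in non-mated cycles. With all arrays the replicate block changed no call: 0 of the 7 and 0 of the 16 genes passed.

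Leaving out 1 array at a time gave 840 values, of which 0 passed and 19 turned sign. The ranges were, for conception minus non-mated, -0.60 to 0.54 for C1R at day 4 (highest without non-mated day 4 replicate 2), -0.34 to 0.043 for C1R and -0.023 to 0.52 for CD46 at day 6, -0.72 to 0.66 for CFB at day 2 and -1.87 to 0.39 at day 4, -1.58 to 0.031 for CFD at day 2 and -0.84 to 0.80 at day 4, and -0.063 to 0.46 for CFI at day 6. For day 6 minus day 2 they were -0.81 to 0.49 for C3 and -0.12 to 0.40 for CFI in conception cycles and -0.77 to 0.34 for CFD in non-mated cycles. Among the 16 other complement genes, the number that passed for day 6 against day 2 in conception cycles was 0 with all arrays (0.0164% of all features), 2 without the weak arrays (1.69%) and 1 with array weights (1.84%), and without the weak arrays 1 with slide (1.56%), 2 with scan day (3.24%) and 1 with the replicate block (1.23%). The gene that passed with array weights was C8B, and C5AR1 did not pass there (limma adjusted p = 0.051); C5AR1 passed in the other 4. Of the 7 genes, CFB, C3 and CFD were well above background on the fewest arrays, which limits their values.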
